A study of Mus musculus with 6 samples.

Results

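The Trim genes encode the tripartite motif proteins, most of them E3 ubiquitin ligases built from a RING domain, 1 or more B-box domains and a coiled coil, with a C-terminal part that differs between classes and picks the target. The RING domain recruits an E2 enzyme that carries ubiquitin, and the protein then passes ubiquitin, or a ubiquitin-like modifier, to its target. Several members act in innate antiviral signalling and are themselves induced by interferon, while others repress transcription on chromatin or act on the cytoskeleton, centrosome or peroxisome. The genes described here are all rows of the deposited count table whose symbol is Trim followed by a number. There are 55 such rows among 16281 genes, and 41 of them passed the filter on low counts and were tested with 11698 genes in all.

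RNA was measured in CD8+ T cells from spleens of C57BL/6 OT1 mice with the genotype Tg(TcraTcrb)1100Mjb, a transgenic T-cell receptor that recognises an ovalbumin peptide, so all samples carry the transgene. In culture they received anti-CD3 and anti-CD28 in the presence of IL-2 during the first 48 h, followed by IL-2 alone during 3 further days. Throughout, the medium held either vehicle (Veh, 3 samples) or 0.5 μM of GSK2879552 (GSK, 3 samples), an irreversible inhibitor of the histone demethylase LSD1. The paper names 3 separate OT1 mice as the source and gives 3 mice per group. Which libraries share a mouse is not stated. Total counts per sample lay between 18288447 and 19846720. The T-cell genes Cd3e, Cd3g, Cd8a, Cd8b1 and Thy1 summed to between 2811 and 2928 CPM (counts per 1000000 counts, on TMM-scaled totals) over the 6 samples. B-cell markers summed to between 5.53 and 7.94 CPM, CD4 T-cell markers to between 39.2 and 52.9 CPM, erythroid markers to at most 0.574 CPM and striated muscle markers to at most 1.29 CPM. Most of the CD4 T-cell sum was Zbtb7b (33.7 to 49.4 CPM), while Cd4 had 0.47 to 1.79 CPM and Foxp3 1.68 to 4.99 CPM. Most of the B-cell sum was Cd79b, with means of 6.5 CPM in Veh and 4.9 in GSK. Cd79a and Ms4a1 went the other way, from means of 0.072 and 0.071 CPM in Veh to 0.36 and 0.31 in GSK. Myeloid markers summed to between 2.73 and 4.52 CPM in Veh and between 1.30 and 2.63 CPM in GSK, without overlap. Most of this sum was Itgam (2.09 to 2.72 CPM in Veh, 0.99 to 1.92 in GSK), while the groups overlapped in Lyz2, Csf1r and Adgre1. NK-cell markers summed to between 1.52 and 2.36 CPM in Veh and between 2.33 and 3.73 CPM in GSK, nearly all of it Klrb1c, as Ncr1 had 1 count in all. Among the T-cell genes, Thy1 was higher in GSK (1413 ± 34.3 beside 1205 ± 20.5 CPM) and Cd3e and Cd3g were lower (242 ± 9.89 beside 284 ± 4.91 and 325 ± 12.4 beside 423 ± 16.4 CPM, SD, n = 3). What part these shifts have in the Trim values was not tested, and in bulk RNA fewer cells of a type and less RNA per cell cannot be told apart.

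A group of the members holds the same short pattern near the start site. Interferon-stimulated response elements are bound by IRF proteins, and they carry a repeat of GAAA with a short gap. The pattern searched was GAAANNGAAA on either strand, where N is any base, in the RefSeq promoters of GRCm38.p6 (250 bases before to 50 after an annotated start site). The other strand reads TTTCNNTTTC. Of the 55 Trim genes, 44 had a promoter in this table and 9 of these, 20.5%, held the pattern, beside 3.99% of all 27025 genes with a promoter. These lines give the matched stretch of each, on the strand of the gene, with the pattern in capitals and 7 bases on each side. The search fixed the pattern, so only the bases at N and beside it can show likeness, and only for these stretches.
Trim5: gttgtggTTTCTGTTTCatttcca
Trim12a: gttgtggTTTCTGTTTCatttcca
Trim12c: gttgtggTTTCTGTTTCatttcca
Trim30a: tctttagTTTCTTTTTCtcagttc
Trim30d: tctttagTTTCTTTTTCtcagttc
Trim34a: tttggagTTTCAGTTTCttttctc
Trim21: ctgagagGAAACTGAAAGTGAAAtttggac
Trim26: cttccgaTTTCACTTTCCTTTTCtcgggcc
Trim2: gctttggTTTCCTTTTCtctaaga

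The stretches of Trim5, Trim12a and Trim12c were identical over these 24 bases, and so were those of Trim30a and Trim30d. All lie on chromosome 7 except Trim26 and Trim2. On the minus strand of GRCm38.p6 the stretches are at chr7:104288139-104288162 (Trim5), chr7:104315469-104315492 (Trim12a), chr7:104353362-104353385 (Trim12c), chr7:104465213-104465236 (Trim30a), chr7:104507874-104507897 (Trim30d), chr7:102565447-102565476 (Trim21) and chr3:84212794-84212817 (Trim2). On the plus strand they are at chr7:104244460-104244483 (Trim34a) and chr17:36836979-36837008 (Trim26). In Trim21 and Trim26, 2 matches overlapped, which gives 16 bases in capitals. Relative to the start site, counted as 1, the match began at position -49 in Trim5, -29 in Trim12c, -36 in Trim30a, -41 in Trim30d and -160 in Trim26, and after the start site at 11 in Trim12a and Trim34a, 14 in Trim21 and 29 in Trim2. Trim30a has a further promoter in the table, which also held a match. A match is a description of letters and says nothing of whether a factor was bound in these cells.

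For Trim30a and Trim26 the 200 bases before the start site are given in full, again on the strand of the gene and with the pattern in capitals. They lie on the minus strand at chr7:104465194-104465393 for Trim30a and on the plus strand at chr17:36836946-36837145 for Trim26.
Trim30a: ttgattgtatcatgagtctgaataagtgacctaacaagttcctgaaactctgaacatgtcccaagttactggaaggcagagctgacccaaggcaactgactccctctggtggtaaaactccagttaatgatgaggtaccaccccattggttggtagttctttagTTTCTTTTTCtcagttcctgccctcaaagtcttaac
Trim26: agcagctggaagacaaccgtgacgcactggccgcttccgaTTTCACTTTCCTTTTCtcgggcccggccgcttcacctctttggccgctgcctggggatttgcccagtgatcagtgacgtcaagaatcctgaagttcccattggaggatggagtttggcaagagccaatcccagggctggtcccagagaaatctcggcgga

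The members differed widely in level. Their counts over the 6 samples ran from 1 to 37307, and all 55 together made up between 2212 and 2607 CPM of a sample. The 5 most counted members, Trim28, Trim30a, Trim25, Trim59 and Trim44, held between 40.6% and 42.5% of the family's CPM in each sample. Divided by exon length, Trim28 was the most abundant in Veh, with 75.9 ± 1.13 CPM per kilobase (SD, n = 3), followed by Trim59 with 50.4 ± 1.63 and Trim30a with 48.0 ± 7.84 CPM per kilobase. The levels of Trim59 and Trim30a overlapped within their spread. Next came Trim25 with 30.2 ± 3.52, Trim12c with 28.1 ± 3.71 and Trim34a with 25.7 ± 4.09 CPM per kilobase, which also lay within each other's spread. Among the tested members the lowest per kilobase was Trim2, a ligase with NHL repeats known from neurons, at 0.0651 ± 0.0082 CPM per kilobase. Trim66, at 0.0668 ± 0.0188 CPM per kilobase, lay within that spread.

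The 14 members that were not tested had between 1 and 43 counts over all 6 samples. They include the muscle genes Trim63 and Trim72, of which Trim63 had 1 count in all, the germ-cell and early-embryo genes Trim43a, Trim43c and Trim71, the brain gene Trim9 and the erythroid gene Trim10. Of the 14, 8 had no more than 10 counts in all. The untested members also include Trim15, Trim30b, Trim31, Trim40, Trim47, Trim61 and Trim69. At this depth no difference between GSK and Veh could be shown for any of them.

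**Figure D1:**
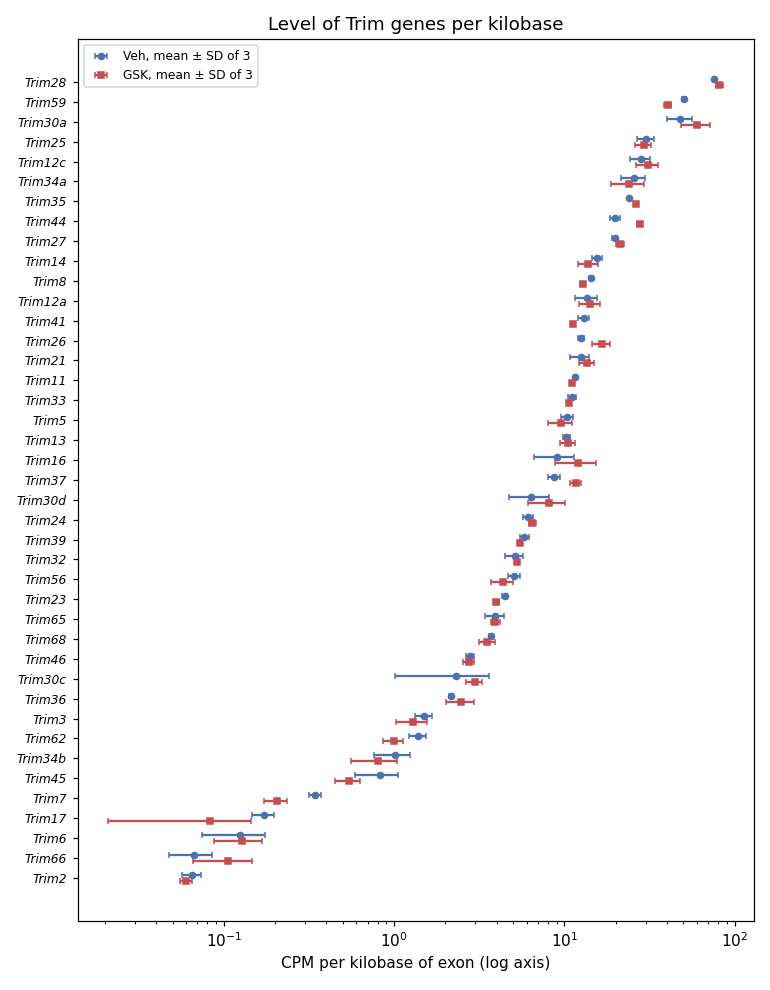
Level of the 41 Trim genes with at least 50 counts over the 6 samples, in CPM per kilobase of exon on a log axis, as the mean and SD of 3 Veh samples (circles) and 3 GSK samples (squares). Trim28 has the highest level in both groups, and the markers of the groups lie close together for most genes.

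Between GSK and Veh, most Trim genes did not pass, as was also so for all genes tested, and the median size of change was alike. With edgeR's quasi-likelihood fit and p-values adjusted by Benjamini-Hochberg across the tested genes, 4 of 41 were higher in GSK at an adjusted p under 0.05 (9.76%, beside 16.6% of all genes tested) and 5 were lower (12.2%, beside 15.5%). In either direction these were 9 genes, or 22% of the family, beside 32.1% of all genes tested. Past a fold change of 1.5 as well, 0 Trim genes were higher (beside 2.22% of all genes) and 1 was lower (beside 4.09%), or 2.44% of the family in either direction beside 6.32% of all genes. DESeq2 also gave 0 higher past 1.5-fold, and of the 12 members with an unadjusted p under 0.05 none was higher by 1.5-fold. The median log2 fold change of the family was -0.03, beside -0.0039 for all genes tested, and the median size of the change, without its sign, was 0.16 in both. All 3 GSK samples lay above all 3 Veh samples in 5 members (12.2%, beside 23.7% of all genes tested) and below them in 8 (19.5%, beside 23%), together 31.7%, beside 46.7%. An exact two-sided permutation test of a single gene has a smallest possible p of 0.1 in this design, so genes were tested in the model across all genes.

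**Figure D2:**
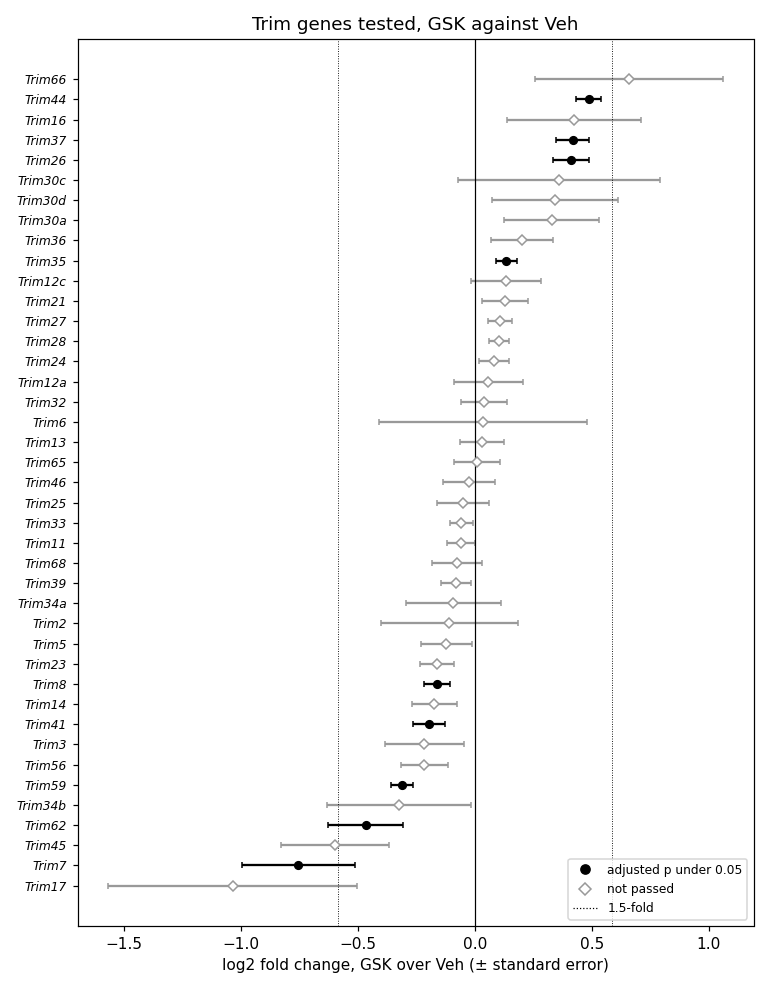
Log2 fold change of GSK over Veh with its standard error for the 41 tested Trim genes, ordered by value. Filled circles mark the 9 genes past an adjusted p of 0.05, open diamonds the others, and dotted lines a fold change of 1.5. Only Trim7 among the filled circles lies past a dotted line, on the lower side.

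Of the members higher in GSK, Trim44 had the smallest p. It encodes a protein without a RING domain that carries a zinc finger of the kind found in ubiquitin proteases. Trim44 RNA was 109, 120 and 106 CPM in the 3 Veh samples and 163, 155 and 153 CPM in the 3 GSK samples. Every GSK sample lay above every Veh sample. GSK differed from Veh by 0.49 ± 0.053 (SE) on the log2 scale, with an adjusted p of 4.2e-05, a rise of 1.40-fold. Dropping any 1 library gave 0.45 to 0.54. A long noncoding RNA gene and a pseudogene overlap Trim44, which spans chr2:102300119-102400900 in GRCm38.

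Trim37 encodes the member with a MATH domain, a ligase of the peroxisome and centrosome that is mutated in mulibrey nanism. Its RNA was 57.2, 65.1 and 66.9 CPM in Veh and 85.4, 77.8 and 89.5 CPM in GSK, again without overlap between the groups. GSK differed from Veh by 0.42 ± 0.069 (SE) on the log2 scale, with an adjusted p of 7.6e-04. The region on chromosome 11, from 87126790 to 87250874, overlaps that of the protein-coding gene Ppm1e, so reads there are uncertain.

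Trim26 encodes a SPRY-domain ligase of the major histocompatibility complex region on chromosome 17 (36837123 to 36859398), known for acting on IRF3. Its RNA was 84.8, 89.4 and 83.4 CPM in Veh and 109, 130 and 103 CPM in GSK, and all GSK samples were higher. GSK differed from Veh by 0.41 ± 0.076 (SE) on the log2 scale, with an adjusted p of 0.0022. Trim26 was the 1 member with a GAAANNGAAA match in its promoter that passed the test, out of 9. Of the 22 tested members with a promoter and no match, 6 passed, and of all genes tested 32.1% passed. Of the cluster neighbours of Trim26, only Trim39 had enough counts to be tested. A small nucleolar RNA gene overlaps Trim26.

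Trim35, a ligase linked to the turnover of IRF7, was the fourth, at chr14:66297025-66311424, where a long noncoding RNA gene overlaps it. Its RNA was 112, 111 and 109 CPM in Veh and 124, 118 and 122 CPM in GSK. The groups did not overlap, but the difference was small (log2 fold change 0.13 ± 0.044 SE, adjusted p = 0.033).

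Among the members lower in GSK, Trim59 had the smallest p. It encodes a membrane-anchored RING protein. Trim59 RNA was 175, 167 and 164 CPM in Veh and 134, 143 and 131 CPM in GSK, and every GSK sample lay below every Veh sample. GSK differed from Veh by -0.31 ± 0.048 (SE) on the log2 scale, with an adjusted p of 4.4e-04, and dropping any 1 library gave -0.35 to -0.29. The gene lies on chromosome 3 from 69035292 to 69044742 and overlaps no other gene of the RefSeq table, although 2.26% of its stretches of 75 transcript bases also occur in transcripts of other genes. The other member with a transmembrane end, Trim13, had a log2 fold change of 0.03 (adjusted p = 0.83).

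Trim7, whose protein binds glycogenin, was the member with the largest fold change among those that passed and the least counted of them. It had 44, 49 and 54 counts in the Veh samples and 26, 36 and 28 in the GSK samples, or 2.62 ± 0.222 and 1.55 ± 0.241 CPM (SD, n = 3). GSK differed from Veh by -0.75 ± 0.24 (SE) on the log2 scale, with an adjusted p of 0.031. Trim41, its neighbour on chromosome 11 and a ligase named for binding protein kinase C, had 46.1, 41.7 and 48.7 CPM in the Veh libraries and 40.0, 40.0 and 39.2 in the GSK libraries (log2 fold change -0.20 ± 0.067 SE, adjusted p = 0.039). The regions lie from 48826138 to 48851192 for Trim7 and from 48806403 to 48818199 for Trim41, and a pseudogene and transfer RNA genes overlap that of Trim7.

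Trim62, a ligase for the adaptor CARD9, had 6.91, 7.67 and 6.10 CPM in the Veh libraries and 4.94, 5.67 and 4.33 in the GSK libraries (log2 fold change -0.47 ± 0.16 SE, adjusted p = 0.041). Trim8, known for binding SOCS1 and for ubiquitinating TAK1, had 52.2, 53.1 and 54.7 CPM in the Veh libraries and 45.8, 48.7 and 48.4 in the GSK libraries (log2 fold change -0.16 ± 0.056 SE, adjusted p = 0.042). In these genes, as in Trim7 and Trim41, the groups did not overlap. Trim62 lies at chr4:128884044-128911326 and Trim8 at chr19:46501648-46516805, and no other annotated gene overlaps either.

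**Figure D3:**
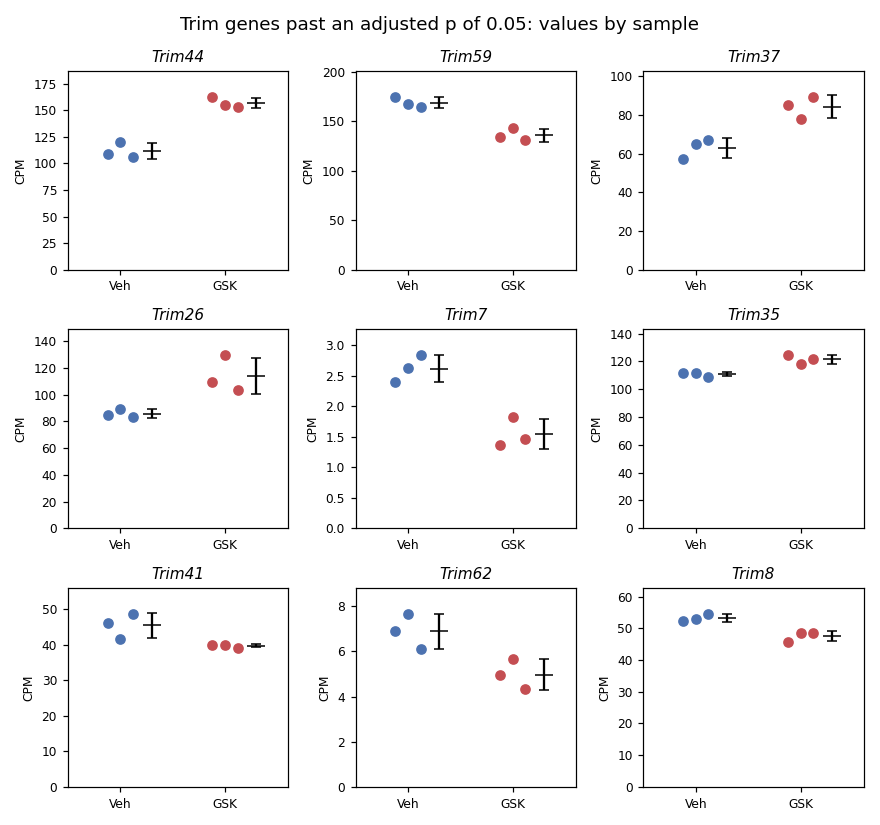
CPM of the 9 Trim genes past an adjusted p of 0.05, by sample, on axes that start at 0, with the mean and SD of each group of 3 beside the points. In every panel the GSK points lie on one side of the Veh points, with a gap that is wide for Trim44 and narrow for Trim35 and Trim41.

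These 9 calls were not equally stable. Trim44, Trim37, Trim26 and Trim59 passed with each of the 6 samples left out, with highest adjusted p-values of 0.0011, 0.0081, 0.015 and 0.0057, and with DESeq2. The other 5 passed in 1 or 2 of the 6 fits without a sample and did not pass with DESeq2, where their adjusted p-values lay between 0.064 and 0.11. Leaving out 1 sample, Trim7, Trim35 and Trim8 passed only without GSK replicate 2, with adjusted p-values of 0.028, 0.019 and 0.040, and rose to 0.10, 0.14 and 0.15 without GSK replicate 1. Trim41 passed without Veh replicate 2 (0.017) or GSK replicate 2 (0.049) and was at 0.17 without Veh replicate 3. Trim62 passed without Veh replicate 3 (0.041) or GSK replicate 2 (0.022) and was at 0.14 without Veh replicate 2. Their direction was kept in each of these fits, with log2 fold changes from -0.89 to -0.67 for Trim7, -0.57 to -0.38 for Trim62, -0.26 to -0.14 for Trim41, -0.18 to -0.14 for Trim8 and 0.11 to 0.15 for Trim35. Without GSK replicate 2 the counts rose to 7 members higher and 9 lower, while without any other single sample they were 3 higher and 1 or 2 lower. The calls over all genes moved likewise. They were 1941 higher and 1819 lower in the reported fit, and 2090 and 2013 without GSK replicate 2. Leaving out any other single sample gave 1288 to 1655 higher and 1281 to 1530 lower.

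Trim28, Trim24, Trim33 and Trim66 form the class with a PHD finger and a bromodomain, which acts on chromatin. Trim28, also called KAP1, is the corepressor of KRAB zinc finger proteins and recruits the methyltransferase SETDB1. None of the 4 passed edgeR's test or DESeq2, and 1, Trim28, had an unadjusted p under 0.05. Of all genes tested, 32.1% passed edgeR's test and 43% had an unadjusted p under 0.05. Trim28 had 310, 319 and 317 CPM in the Veh libraries and 334, 326 and 356 in the GSK libraries. Every GSK sample lay above every Veh sample, with a log2 fold change of 0.10 (95% interval 0.019 to 0.19, adjusted p = 0.084). The adjusted p was 0.030 without GSK replicate 2.

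Trim24, a coregulator of nuclear receptors, had 56.2, 50.4 and 49.9 CPM in the Veh libraries and 53.3, 58.1 and 54.2 in the GSK libraries (log2 fold change 0.08, 95% interval -0.044 to 0.21). Trim33, a partner and regulator of SMAD proteins, had 114, 109 and 104 CPM in the Veh libraries and 104, 108 and 102 in the GSK libraries (log2 fold change -0.06, 95% interval -0.16 to 0.039). In both genes the groups overlapped, and neither interval reached a change of 1.5-fold. Trim66, with 100 counts over the 6 samples, gave a wide interval from -0.13 to 1.45.

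Of 10 genes listed as partners of Trim28 in repression or chromatin assembly, 1 was higher and 1 lower (20%, beside 32.1% of all genes tested). Morc3, a chromatin ATPase, went from 83.9 ± 3.30 to 94.9 ± 5.87 CPM (SD, n = 3, log2 fold change 0.18, adjusted p = 0.029 from edgeR). Chd4, the ATPase of the NuRD complex, went from 770 ± 4.90 to 706 ± 14.9 CPM (log2 fold change -0.12, adjusted p = 0.012 from edgeR). Setdb1 and Cbx5, which encodes the heterochromatin protein HP1 alpha, did not pass, with log2 fold changes of 0.08 and -0.06.

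The interferon-inducible members were listed as Trim5, Trim6, Trim12a, Trim12c, Trim14, Trim21, Trim25, Trim30a to Trim30d, Trim34a, Trim34b and Trim56. Of the 13 tested, 0 passed by edgeR (beside 32.1% of all genes tested) and 0 by DESeq2 (beside 3184 of the 11698 genes). At an unadjusted p under 0.05 in edgeR there were also 0, beside 43% of all genes tested. The median log2 fold change of the 13 was 0.03, beside -0.0039 for all genes tested. Within this list the libraries labelled replicate 3 stood apart. In 12 of the 13 genes (92.3%) replicate 3 had the lowest CPM of both the Veh and the GSK samples, Trim6 being the exception, which compares with 13.9% of all genes tested. The same held for 25 of 26 interferon-stimulated genes outside the family, such as Isg15 and Ifit3, whose summed CPM was 2691, 2751 and 2179 in Veh and 2795, 3013 and 2362 in GSK. Of the 28 tested members not on the interferon list, 8 had replicate 3 lowest in both groups (28.6%). By promoter, replicate 3 was lowest in both groups in 8 of the 9 genes with a GAAANNGAAA match, Trim2 being the exception. It was so in 9 of the 22 tested genes with a promoter and no match. All matched genes but Trim26 and Trim2 are also on the interferon list, so the promoter count is not separate from the count above.

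Trim30a, which is known for restraining NF-κB signalling, was the most counted of the interferon-inducible members. It had 222, 210 and 161 CPM in Veh and 255, 292 and 197 CPM in GSK. The lowest GSK sample lay within the Veh range, and the difference of 0.33 ± 0.20 (SE) on the log2 scale did not pass (adjusted p = 0.30). With replicates 1 and 2 of each group alone, an alternative chosen after seeing the data, the log2 fold change was 0.34 and the adjusted p 0.0043. Zbp1, a nucleic acid sensor and the 1 of the 26 interferon-stimulated genes that passed edgeR's test, had 155, 152 and 109 CPM in the Veh libraries and 226, 239 and 188 in the GSK libraries (log2 fold change 0.65, adjusted p = 0.045). DESeq2 called 2 of the 26. By edgeR the 1 gene is 3.85% of the list, beside 32.1% of all genes tested.

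Trim25, the ligase that ubiquitinates the RNA sensor RIG-I, had 184, 188 and 151 CPM in the Veh libraries and 173, 183 and 147 in the GSK libraries. Its log2 fold change was -0.05, with a 95% interval from -0.27 to 0.16. Trim21, a cytosolic antibody receptor, had 52.1, 46.3 and 40.3 CPM in the Veh libraries and 51.7, 54.7 and 45 in the GSK libraries (log2 fold change 0.13, 95% interval -0.064 to 0.32). Trim14, an adaptor at the mitochondrial protein MAVS without a RING domain, had 69.7, 71.2 and 62.4 CPM in the Veh libraries and 63.0, 66.5 and 50.8 in the GSK libraries (log2 fold change -0.17, 95% interval -0.36 to 0.011). In each of these genes the groups overlapped, and both replicate 3 libraries were the lowest of their group.

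Most of the interferon-inducible members sit side by side. On chromosome 7 of GRCm38, from 104218795 to 104507853, 10 Trim genes follow each other in the order Trim6, Trim34a, Trim5, Trim12a, Trim34b, Trim12c, Trim30b, Trim30c, Trim30a and Trim30d. Of the 9 that were tested, all on the interferon list above, 0 passed by edgeR, beside 32.1% of all genes tested. Their log2 fold changes ran from -0.33 for Trim34b to 0.36 for Trim30c. Groups overlapped in all 9, whereas they did not overlap in 46.7% of all genes tested. Trim30c had 92, 103 and 27 counts in Veh and 105, 105 and 86 in GSK, so the lower Veh mean rests on replicate 3, and without Veh replicate 3 the log2 fold change was -0.04.

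These neighbours are copies of each other, and a read can fit more than 1 of them. Of the distinct stretches of 75 bases in GENCODE transcripts, 42.5% of those of Trim34b and 29.5% of those of Trim34a also occurred in another gene, mainly in each other. The share was 20.6% for Trim5, 16.9% for Trim12c and 5.25% for Trim12a, which share stretches among themselves, and 4.98% for Trim30a and 5.4% for Trim30d. The stretches are shorter than the sequenced reads. Counts of Trim34b, between 20 and 41 a sample beside 942 to 1502 for Trim34a, are therefore uncertain. Trim12c and Trim12a had log2 fold changes of 0.13 and 0.06, and that of Trim5 was -0.12.

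**Figure D4:**
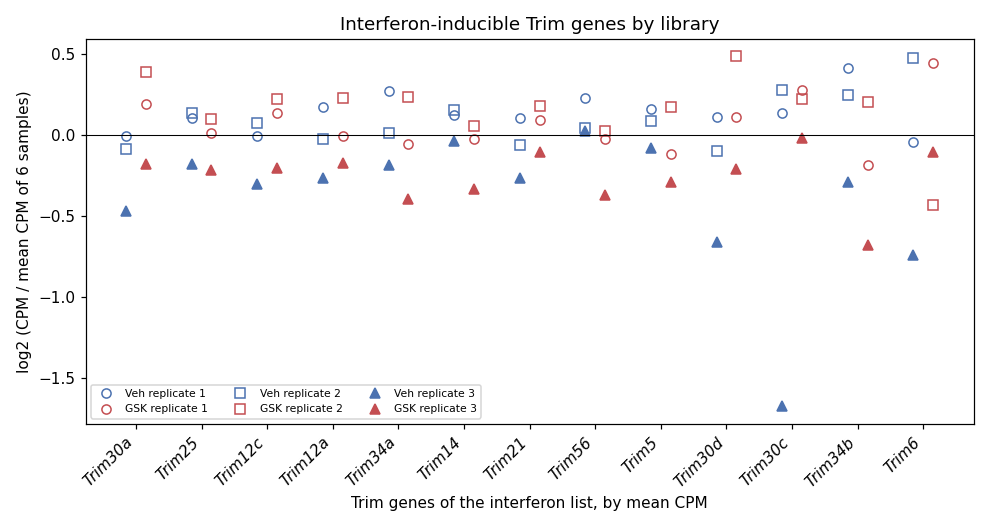
Log2 of the CPM in each library over the mean CPM of all 6 samples, for the 13 tested interferon-inducible Trim genes, ordered by mean CPM. Filled triangles are the replicate 3 libraries of Veh (blue) and GSK (red), which lie below the open symbols of their own group in every gene but Trim6.

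Among the remaining members, Trim16 showed a wide spread between libraries in the other direction. It encodes a RING-less protein that acts in autophagy of damaged membranes, and it had 33.2, 36.8 and 53.4 CPM in the Veh libraries and 46.2, 47.2 and 72.3 in the GSK libraries. Replicate 3 was the highest in both groups, and the difference of 0.42 ± 0.28 (SE) on the log2 scale did not pass (adjusted p = 0.33). With replicates 1 and 2 of each group alone it was 0.41 with an adjusted p of 0.0042. Trim37 and Trim66 were the only other tested members with replicate 3 highest in both groups.

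Trim27, a SPRY ligase known for acting on endosomal and immune signalling, had 109, 112 and 105 CPM in the Veh libraries and 118, 109 and 123 in the GSK libraries (log2 fold change 0.11, adjusted p = 0.14). Trim32, an NHL-repeat ligase mutated in a limb-girdle muscular dystrophy, had 14.3, 17.9 and 17.2 CPM in the Veh libraries and 16.9, 16.9 and 17 in the GSK libraries (log2 fold change 0.04, adjusted p = 0.79). Trim45, a member with a filamin domain, had 3.37, 5.31 and 6.10 CPM in the Veh libraries and 3.36, 3.75 and 2.66 in the GSK libraries. Its log2 fold change of -0.60 did not pass (adjusted p = 0.064), but passed without Veh replicate 1 (0.017), without GSK replicate 2 (0.046) or with no filter on low counts (0.040). Of all 41 tested members, 24 had a log2 fold change below 0.2 in size. Trim17 had the largest, -1.04 on 54 counts over all samples, and did not pass in edgeR (adjusted p = 0.16). It passed without GSK replicate 2 (0.043).

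By class, the 22 tested members with a SPRY domain and no COS domain held 2 higher and 3 lower genes (22.7%, beside 32.1% of all genes tested in either direction), with a median log2 fold change of -0.02. The 3 tested NHL members (Trim2, Trim3 and Trim32) and the 2 tested members with a COS and SPRY domain (Trim36 and Trim46) held none by edgeR or DESeq2, and none had an unadjusted p under 0.05. Of the 3 tested members placed in a class for lack of a RING domain (Trim14, Trim16 and Trim44), Trim44 was the 1 that passed (33.3%, beside 32.1% of all genes tested).

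Genes of the same family under other names were also counted. Pml, which encodes the organiser of PML nuclear bodies and is interferon-inducible, had a mean of 212 ± 13.0 CPM in Veh and 199 ± 22.9 in GSK (SD, n = 3, log2 fold change -0.09). Of these genes, Pml, Bspry and Mid1 were tested, and 0 of 3 passed by edgeR, by DESeq2 or at an unadjusted p under 0.05. Among all genes tested, 32.1% passed by edgeR. Mid1, a ligase of microtubules, had 24, 30 and 76 counts in Veh and 26, 21 and 98 in GSK, with replicate 3 highest in both groups.

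Of 11 E2 enzymes that work with RING ligases of this kind, 10 were tested and 2 passed, both higher in GSK (20%, beside 32.1% of all genes tested). Ube2n, which builds lysine-linked chains used in signalling, went from 105 ± 1.94 CPM in Veh to 124 ± 6.74 CPM in GSK (SD, n = 3, log2 fold change 0.24, adjusted p = 0.0028 from edgeR). Its cofactor Ube2v2 went from 12.9 ± 1.56 to 15.9 ± 0.749 CPM (log2 fold change 0.30, adjusted p = 0.043 from edgeR), while the alternative cofactor Ube2v1 had a log2 fold change of 0.01 (adjusted p = 0.95). The most counted E2 on the list, Ube2d3, had a mean of 411 ± 9.75 CPM in Veh and 421 ± 8.85 in GSK, a log2 fold change of 0.03. DESeq2 called 1 of these 10 genes.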

How the data were processed

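RNA-seq counts of 3 GSK and 3 Veh samples were used. The authors trimmed reads with Trimmomatic, mapped them to GRCm38 with HISAT2 (version 2.1.0) and counted reads per gene with HTSeq (version 0.11.2), and the deposited values are whole counts without normalization. The annotation release and the strand setting are not given in the sources used here, so counts of members that overlap other annotated genes, 25 of the 55, are uncertain. Beside those named with their values, these include Trim28, Trim32, Trim13, Trim17 and Trim46, which overlap protein-coding genes. They also include Trim2, Trim5, Trim6, Trim12a, Trim12c, Trim14, Trim25, Trim30a and Trim30d, which overlap noncoding genes or pseudogenes. Libraries were poly(A)-selected and made with a stranded kit. The table also holds gene descriptions and functional terms, which were not used.

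GSK was tested against Veh with edgeR (version 4.0.16, R version 4.3.3) by the robust quasi-likelihood test after TMM scaling and filterByExpr, and p-values of the 11698 genes left were adjusted by Benjamini-Hochberg. A gene was called under an adjusted p of 0.05, with 1.5-fold, the cutoff of the study, as a further limit. Standard errors come from the test statistic. The 95% intervals are 1.96 standard errors to each side, a normal approximation that can be too narrow with 3 samples per group. That of Trim27, for example, ran from 0.0039 to 0.21, although its unadjusted p in the quasi-likelihood test was 0.063. CPM use the TMM-scaled totals. Depth, between 18288447 and 19846720 counts a sample, sets the precision of low genes. Alternatives were DESeq2 (version 1.42.0), RLE size factors, 2 other filters, the replicate block, leaving out each sample, and, after seeing the data, replicates 1 and 2 alone. Replicates differed by more than sampling noise (chi-square per degree of freedom 4.07 to 9.38). The labels do not say that same-numbered samples share a mouse, and deviations from the group means correlated by -0.059, -0.073 and 0.15 across genes for replicates 1, 2 and 3, so the number was not taken as a pairing. P-values weigh the difference between the groups against the spread between these samples, which is estimated for each gene with help from all genes.

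Members are the rows named Trim and a number. Values in every sample are given for those past an adjusted p of 0.05 and for Trim28, Trim24, Trim33, Trim21, Trim25, Trim27, Trim14, Trim30a, Trim59, Trim32 and the 5 with the highest mean CPM. Trim16, Trim17, Trim30c, Trim34b, Trim45, Trim66 and Mid1 were singled out after their values were seen. The members and lists were chosen with earlier results of these data known. Positions and promoters are RefSeq's for GRCm38.p6, matched by Entrez identifier (all 55 for positions, 44 for promoters), and exon lengths are the union of GENCODE M21 exons, matched by symbol. The test was checked on simulated counts.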

Additional observations from a re-analysis of the deposited data

How the results depend on the processing

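The number of Trim genes higher in GSK, 4 in the reported fit, was 3 with DESeq2, 4 with RLE size factors and both other filters, 6 with the replicate block and 5 with replicates 1 and 2 alone, and leaving out each sample gave 3 to 7. The number lower, 5 in the reported fit, was 1 with DESeq2, 2 with the replicate block, 1 with replicates 1 and 2 alone, and 1 to 9 with each sample left out. Lower past 1.5-fold was 1 (Trim7), and 0 with DESeq2, the replicate block or replicates 1 and 2 alone, 2 without a filter (Trim45 and Trim7) and 0 to 3 with a sample left out. Higher past 1.5-fold was 0 in every one of these. Over all genes, the reported fit called 1941 higher and 1819 lower. These counts were 1669 and 1521 with DESeq2, 1703 and 1600 with the replicate block, and 1072 and 1106 with replicates 1 and 2 alone. Trim44, Trim37, Trim26 and Trim59 passed under all 12 alternatives. With the replicate block, Trim30a (adjusted p = 0.0036), Trim30d (0.042) and Trim16 (0.0013) also passed in edgeR, and Trim7, Trim8, Trim35 and Trim41 did not. The samples share only a number, and 2 of 6 correlated best with the sample of their own number in the other group. With replicates 1 and 2 alone, Trim6 and Trim65 changed sign, to -0.18 and -0.0395. Sign changes on leaving out 1 sample concerned genes far from the threshold: Trim32 (-0.0526 to 0.103), Trim34a (-0.261 to 0.0511), Trim25 (-0.145 to 0.0312), Trim46 (-0.0802 to 0.0312), Trim65 (-0.0743 to 0.114), Trim12a (-0.0585 to 0.168), Trim30c (-0.0445 to 0.673), Trim6 (-0.239 to 0.363) and Trim13 (-0.0545 to 0.0695), on the log2 scale. The cause of these shifts was not tested. RLE size factors changed no call. Depth limits the 14 members with at most 43 counts, none of which passed without a filter.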
